A study of Mus musculus with 57 samples.

Results

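The transcripts of mouse visual cortex at midnight were compared with those at midday, on a day with the usual light. The comparison rests on 7 of the 57 libraries of the series, chosen by their labels. The Light ZT18 group has 3 libraries and the Light ZT7.5 group has 4. Zeitgeber time (ZT) counts hours from the usual lights-on. The mice were wild type. Their daily cycle had 12 h of light followed by 12 h of dark, so that ZT18 lies 6 h into the dark phase and ZT7.5 lies 7.5 h into the light phase. Mice of both groups had received light on the day of collection. Beside them stand the groups of the same clock times from a day on which the lights stayed off, Dark ZT18 and Dark ZT7.5, with 4 libraries each. No treatment other than the lighting and no altered allele is labelled, and strain and age are not stated in the labels. The labels call the samples biological replicates without saying that each came from its own animal, and p-values here measure no more than the spread among the samples. RNA was measured by MARS-Seq, a method that counts sequence tags at the 3′ end of polyadenylated RNA.

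Laboratory mice are nocturnal, so midnight falls in their main period of activity and midday in their main period of rest. Cortical transcripts are known to follow the circadian clock, light, sleep and waking, and the daily cycles of hormones and body temperature, which a comparison of these times does not separate. The endoplasmic reticulum (ER) folds membrane and secreted proteins with chaperones and disulfide isomerases, and cells raise the genes of these proteins together when the folding load grows. Myelin genes are read in oligodendrocytes, and their transcripts can also be measured in bulk cortex. In such bulk RNA, fewer cells of a type and less RNA per cell cannot be told apart.

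At midnight, transcripts of the ER folding genes Hspa5 and Pdia6 and of the lipid-handling genes Plin4 and Mfsd2a were higher than at midday. Those of the myelin genes Opalin, Pllp and Gal3st1 and of the splicing regulator Hnrnpl were lower. Of 10526 genes tested, 19 (0.181%) passed at an adjusted p under 0.05 with limma, 7 of them higher at Light ZT18 (0.0665%) and 12 lower (0.114%). At an unadjusted p under 0.05 there were 1120. In each of the 19 genes the libraries of the groups did not overlap, as was so for 9.41% of all genes tested (4.49% higher and 4.92% lower at Light ZT18). The size of the differences ran from 0.38 on the log2 scale for Cd81 to 2.55 for Plin4. Every one of these calls depended on Light ZT18 replicate 1. Without that library 0 genes passed (740 at an unadjusted p under 0.05), and the 19 genes had adjusted p-values from 0.128 to 0.539, although none turned its direction and their log2 differences still measured 0.316 to 2.53 in size. The count was 10 without Light ZT18 replicate 3, 6 and 9 without Light ZT7.5 replicates 1 and 2, and 39 without Light ZT7.5 replicate 4. Of the 7 cases of 1 library left out, Hspa5, Pllp and Bex1 passed in 6, Opalin and Mid1ip1 in 5, Htra1, Pdia6, Hnrnpl and Cd81 in 4, Efcab12 and Asrgl1 in 2, and the other 8 genes in 3.

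The libraries of this comparison held 2.38 to 3.20 M reads at Light ZT18 and 1.78 to 2.61 M at Light ZT7.5. Excitatory neuron markers of cortex were abundant in each, with Slc17a7 at 3285 to 4131 at Light ZT18 and 4136 to 4849.8 at Light ZT7.5. All values are the deposited normalised counts. Ttr, the transthyretin gene that marks choroid plexus, was 17176, 179.8 and 5740.3 at Light ZT18, against 121, 267, 125 and 543 at Light ZT7.5. Summed over the 5 choroid plexus markers the level was 354 to 17849 at Light ZT18 and 229 to 646 at Light ZT7.5, and none of the 5 was at 0 in either group. Thalamic markers summed to 122, 99.99 and 131 at Light ZT18, against 346, 172, 131 and 92.4 at Light ZT7.5, so that Light ZT7.5 replicate 1 stood far above the others. Xist, expressed from the inactive X of female cells, was 1.65, 0 and 37.6 at Light ZT18, against 3.40, 1.52, 41.6 and 38.4 at Light ZT7.5. It was thus high in replicate 3 of Light ZT18 and in replicates 3 and 4 of Light ZT7.5, and Malat1, a nuclear noncoding RNA, was low in the same libraries. Malat1 measured 49.4, 118 and 26.2 at Light ZT18, against 171, 100.2, 20.8 and 23.9 at Light ZT7.5. With a term per arm for replicates 3 and 4 against 1 and 2 in the fit, 30 genes passed, all 19 among them. The part of the choroid plexus and thalamic levels in the results was not tested. Without the 10 libraries of the series with Ttr above 5000, which leaves replicate 2 as the lone Light ZT18 library, 0 genes passed (518 at an unadjusted p under 0.05). The Ttr of Light ZT18 replicate 2, 179.8, lies within the range of Light ZT7.5. Its values of the choroid plexus markers Folr1 (10.6), Kl (17.0) and Enpp2 (145) lie above the highest Light ZT7.5 values, 9.35, 11.4 and 138. Light ZT18 replicate 2 was the lowest Light ZT18 library in all 7 higher genes. The share of all genes with that library lowest was not counted. Dark ZT18 replicate 1 had the highest Ttr of its group, 9168. It was the lowest Dark ZT18 library in Hspa5 (364) and Htra1 (790) and the highest in Pdia6 (849). In Plin4, Efcab12, Zbtb40 and Mfsd2a it lay between the others.

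Hspa5 and Pdia6, genes of protein folding in the ER, had the smallest adjusted p-values of the higher group together with Htra1, and the promoters of both carry the ER stress response element. This element is known to bind the factors ATF6 and XBP1 together with NF-Y, and it was first described in promoters of ER chaperone genes, so its presence there is background and not a result. It was searched as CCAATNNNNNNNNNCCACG on both strands of the 250 bases upstream of the RefSeq transcription start (GRCm38.p6). Of the 14 ER chaperone genes with such a window, 7 held a match. So did 11 of 8078 tested genes (0.136%), 37 of 32851 windows of all genes (0.113%) and 2 of the 18 passing genes that have a window. The sites are shown since Hspa5, Pdia6 and other ER chaperone genes share them, with 5 flanking bases on either side and in the direction of transcription. Capitals mark the fixed letters of the element, or their complement where it lies in reverse. The sites of Hspa5 and Pdia6, which rose at midnight, are these.
Hspa5, chr2:34772020-34772048 (plus strand): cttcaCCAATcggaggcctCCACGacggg
Pdia6, chr12:17266486-17266514 (plus strand): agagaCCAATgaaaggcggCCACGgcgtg
The other members with a match follow, and none of them passed in the light arm.
Canx, chr11:50325795-50325823 (minus strand): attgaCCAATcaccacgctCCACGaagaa
Dnajc3, chr14:118937822-118937850 (plus strand): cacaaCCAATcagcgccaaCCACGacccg
Hsp90b1, chr10:86705633-86705661 (minus strand): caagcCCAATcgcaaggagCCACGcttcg
Hsp90b1, chr10:86705528-86705556 (minus strand): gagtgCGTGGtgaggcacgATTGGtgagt
Calr, chr8:84847070-84847098 (minus strand): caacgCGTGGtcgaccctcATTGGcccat
Creld2, chr15:88819515-88819543 (plus strand): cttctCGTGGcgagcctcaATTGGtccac
The element began 65 bases before the RefSeq start of Hspa5 and 98 before that of Pdia6. The gene positions given here come from GENCODE M21, which starts Hspa5 farther upstream, so that the Hspa5 site lies inside the GENCODE gene. In the first 5 listed sites it reads forward and in the other 3 in reverse, and Hsp90b1 holds it in both directions. A match describes the letters and does not show binding.

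Hspa5 encodes BiP, the main Hsp70-type chaperone of the ER lumen. Its normalised count was 499, 421 and 431 in the Light ZT18 libraries, against 285, 290.1, 241 and 275 in the Light ZT7.5 libraries. Every midnight library lay far above every midday library, with a log2 difference of 0.72, SE 0.14, adjusted p = 0.0097 (limma, the source of each adjusted p-value of a single gene). Pdia6, a protein disulfide isomerase, measured 761, 683 and 828 in the Light ZT18 libraries, against 509, 568, 602 and 541 in the Light ZT7.5 libraries. The groups were again apart, with a log2 difference of 0.45, SE 0.09, adjusted p = 0.0097. Xbp1, the transcription factor gene whose spliced form drives the ER chaperones, did not pass. It measured 529, 539 and 599 in the Light ZT18 libraries, against 415, 419, 453 and 415 in the Light ZT7.5 libraries (log2 difference 0.38, SE 0.10, adjusted p = 0.077), without overlap of the groups. Hspa5 lies on chromosome 2 (34771970 to 34777547, plus strand) and Pdia6 on 12 (17266545 to 17284770, plus strand) in GRCm38, and all genes placed here are protein-coding.

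The ER chaperone list had 15 tested members. Of these 2 passed as higher and 0 as lower, against 0.181% of all genes, and all 15 log2 differences were above 0. Their median was 0.14, against -5.42e-05 over all genes tested. Creld2, a secreted ER stress protein, measured 109.5, 88.3 and 144 at Light ZT18, against 77.1, 75.9, 103 and 87.2 at Light ZT7.5 (log2 difference 0.39, adjusted p = 0.37). The lectin chaperone gene Calr averaged 2363 ± 199 at Light ZT18 (SD, n = 3) and 2139.9 ± 124 at Light ZT7.5 (SD, n = 4), a log2 difference of 0.14. The co-chaperone gene Dnajc3 had the smallest difference, 0.01, with 114 ± 4.85 at Light ZT18 and 114 ± 21.2 at Light ZT7.5. Hspa5 and Dnajc3, with the largest and the smallest difference of the list, both hold the element shown above. Without Light ZT18 replicate 1 the list had 0 calls and 14 of 15 positive differences. Without Light ZT18 replicate 3 it had 1 call and 13 positive differences, and without Light ZT7.5 replicate 1 it had 1 call. With 1 library left out the median ran from 0.106 without Light ZT18 replicate 3 to 0.236 without Light ZT18 replicate 2. Without the libraries with Ttr above 5000 the list had 0 calls, 13 positive differences and a median of 0.04.

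Among the other genes that rose, Plin4, Mfsd2a and Htra1 have known roles outside the nucleus. Plin4 encodes a perilipin, a coat protein of lipid droplets, and belongs to the list of glucocorticoid-responsive genes. It measured 35.4, 13.8 and 81.0 in the Light ZT18 libraries, against 4.54, 1.52, 10.4 and 7.27 in the Light ZT7.5 libraries, at a low level where few reads stand behind each value. All midnight libraries were above all midday libraries, although the midnight values differ widely among themselves (log2 difference 2.55, SE 0.55, adjusted p = 0.02). Mfsd2a, which transports lysophosphatidylcholine lipids across the endothelium of the brain, measured 149.9, 128 and 232 at Light ZT18, against 79.4, 77.4, 105 and 101 at Light ZT7.5 (log2 difference 0.86, SE 0.19, adjusted p = 0.029). Endothelial markers summed to 864 to 1034 at Light ZT18 and 761 to 1157 at Light ZT7.5, and 0 of 6 passed. Htra1, a secreted serine protease, measured 1050.1, 970.1 and 1169 at Light ZT18, against 676, 768, 818 and 779 at Light ZT7.5 (log2 difference 0.48, SE 0.10, adjusted p = 0.0097). Its groups did not overlap, and the lowest midnight library was the one with low Ttr. At Dark ZT18 the library with the highest Ttr had the lowest Htra1, 790 against 873 to 935 in the others. At Dark ZT7.5 the library with the highest Ttr measured 810, within the 692 to 846 of the others. Whether Htra1 varies with the choroid plexus level was not tested.

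Efcab12, an EF-hand domain gene, and Zbtb40, a zinc finger gene, complete the higher group. Efcab12 measured 45.3, 35.1 and 44.5 at Light ZT18, against 17.0, 18.2, 18.2 and 20.8 at Light ZT7.5 (log2 difference 1.12, SE 0.26, adjusted p = 0.042). For Zbtb40 the values were 45.3, 39.4 and 74.1 at Light ZT18, against 22.7, 25.8, 31.2 and 31.2 at Light ZT7.5 (log2 difference 0.87, SE 0.20, adjusted p = 0.048). Both are expressed at low levels and passed narrowly. Plin4 lies on chromosome 17 (56100591 to 56109803, minus strand), Mfsd2a on 4 (122946850 to 122961188, minus strand) and Htra1 on 7 (130936111 to 130985660, plus strand). Efcab12 lies on 6 (115810729 to 115838412, minus strand) and Zbtb40 on 4 (136979732 to 137048801, minus strand).

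**Figure D1:**
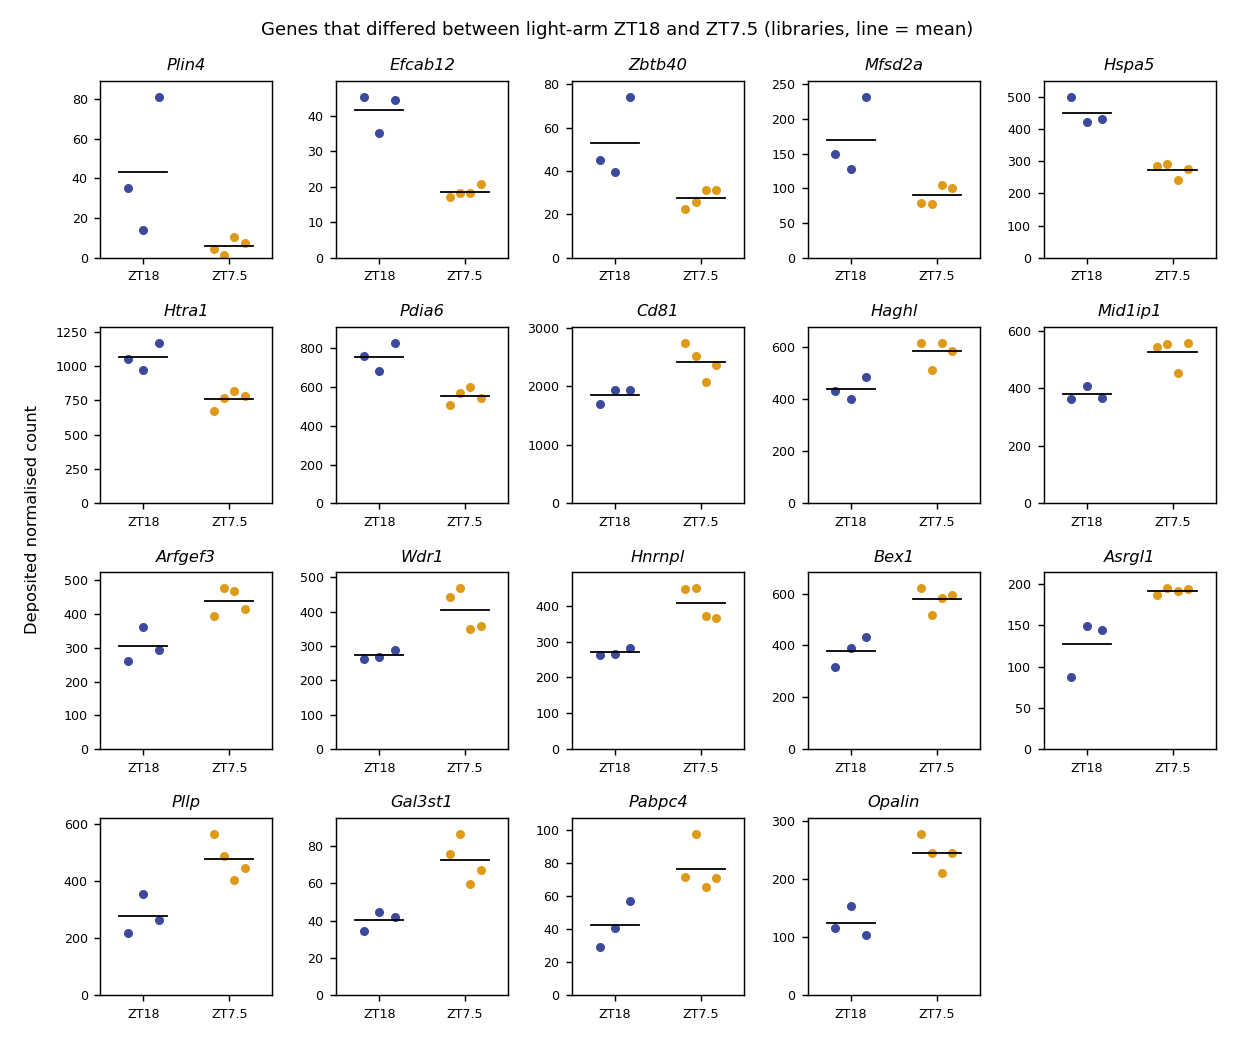
Deposited normalised counts (y axes from 0) of the 19 genes that passed, in the 3 Light ZT18 libraries (blue, left) and the 4 Light ZT7.5 libraries (orange, right) of each panel, with replicates in order of their number and a line at the group mean. The groups do not overlap in any panel, from Plin4 (log2 difference 2.55) to Opalin (-0.98).

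Of the 12 lower genes, 3 belong to the myelin of oligodendrocytes, a grouping made after their values were seen. Opalin, a membrane glycoprotein of oligodendrocytes, measured 116, 154 and 104 in the Light ZT18 libraries, against 278, 246, 211 and 245 in the Light ZT7.5 libraries. The midnight libraries were all below the lowest midday library (log2 difference -0.98, SE 0.18, adjusted p = 0.0064). Pllp, which encodes the myelin proteolipid plasmolipin, measured 216, 353 and 265 at Light ZT18, against 565, 489, 404 and 447 at Light ZT7.5. This gene had the smallest adjusted p-value of the comparison (log2 difference -0.79, SE 0.13, adjusted p = 0.002). Gal3st1 makes sulfatide, a major lipid of myelin, and measured 34.6, 44.7 and 42.2 at Light ZT18, against 76.0, 86.6, 59.8 and 67.5 at Light ZT7.5 (log2 difference -0.82, SE 0.18, adjusted p = 0.027). Its levels were low but did not overlap. Light ZT7.5 replicate 1, the library with the highest thalamic level, was the highest midday library in Opalin and Pllp but not in Gal3st1. Without that library Opalin and Pllp still passed and Gal3st1 did not. The part of the thalamic level in these differences was not tested.

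The general oligodendrocyte markers did not show a difference that passed. Of 7 tested, 0 passed, 5 had a difference below 0 and the median was -0.08. With 1 library left out this median ran from -0.18 without Light ZT7.5 replicate 1 to 0.00 without Light ZT7.5 replicate 4. Their sum was 20371 to 24256 at Light ZT18 and 21687 to 27650 at Light ZT7.5, so the groups overlap, and none of the 7 was at 0. Cnp, a myelin-associated phosphodiesterase, measured 1300.5, 1664 and 1611 at Light ZT18, against 2116, 1949.8, 1657 and 1927 at Light ZT7.5 (log2 difference -0.33, adjusted p = 0.19). Mog, a protein of the outer myelin surface, measured 306, 333 and 342 at Light ZT18, against 532, 336, 354 and 523 at Light ZT7.5 (log2 difference -0.38, adjusted p = 0.29). In Cnp the groups overlap in 1 midday library, and in Mog in 1 midday library as well. The oligodendrocyte precursor markers, 3 tested, had a median of 0.01. Opalin lies on chromosome 19 (41061710 to 41077113, minus strand), Pllp on 8 (94674894 to 94696278, minus strand) and Gal3st1 on 11 (3983636 to 3999326, plus strand).

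Hnrnpl, an RNA-binding regulator of splicing, measured 262, 266 and 283 at Light ZT18, against 446, 448, 372 and 367 at Light ZT7.5 (log2 difference -0.59, SE 0.12, adjusted p = 0.0097). The midnight values lie close together and well below midday. Pabpc4, a cytoplasmic poly(A)-binding protein, measured 28.8, 40.4 and 57.0 at Light ZT18, against 71.5, 97.2, 65.0 and 70.6 at Light ZT7.5 (log2 difference -0.87, SE 0.19, adjusted p = 0.023). Wdr1, which helps cofilin take actin filaments apart, measured 261, 269 and 289.8 at Light ZT18, against 442, 468, 351 and 358 at Light ZT7.5 (log2 difference -0.56, SE 0.12, adjusted p = 0.017). In Hnrnpl and Wdr1 the midday libraries fell into a higher pair, replicates 1 and 2, and a lower pair, replicates 3 and 4, which are the libraries with high Xist and low Malat1. Hnrnpl lies on chromosome 7 (28808541 to 28822266, plus strand), Pabpc4 on 4 (123262351 to 123298925, plus strand) and Wdr1 on 5 (38526813 to 38563221, minus strand).

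Bex1, a small brain-expressed X-linked adaptor gene, measured 318, 389 and 431 at Light ZT18, against 619, 516, 584 and 596 at Light ZT7.5. The groups stood clearly apart (log2 difference -0.62, SE 0.12, adjusted p = 0.007). Bex genes form a family of similar sequence on the X chromosome, and no source used here says how tags shared among them were assigned. Mid1ip1, a regulator of fatty acid synthesis, measured 363, 409.5 and 367 at Light ZT18, against 545, 554, 455 and 559 at Light ZT7.5 (log2 difference -0.47, SE 0.09, adjusted p = 0.007). Cd81, a tetraspanin of the cell surface, measured 1689, 1932 and 1935 at Light ZT18, against 2742, 2510.2, 2068 and 2359 at Light ZT7.5 (log2 difference -0.38, SE 0.08, adjusted p = 0.018). All 3 midnight libraries of Cd81 were below the lowest midday library, at a small difference.

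Arfgef3, a gene of the Arf exchange factor family, measured 259, 362 and 292 at Light ZT18, against 394, 475, 468 and 415 at Light ZT7.5 (log2 difference -0.53, SE 0.11, adjusted p = 0.018). Asrgl1, an asparaginase-like enzyme, measured 87.3, 149 and 144 at Light ZT18, against 186, 194, 191 and 193 at Light ZT7.5 (log2 difference -0.63, SE 0.15, adjusted p = 0.044). Here Light ZT18 replicate 1 stands well below the other midnight libraries, and the midday libraries are nearly equal. Haghl, a gene similar to the glyoxalase hydroxyacylglutathione hydrolase, measured 433, 399.9 and 487 at Light ZT18, against 617, 515, 618 and 588 at Light ZT7.5 (log2 difference -0.41, SE 0.09, adjusted p = 0.035). In 10 of the 12 lower genes Light ZT18 replicate 1 was the lowest midnight library. These genes were called for low midnight values, and none passed without that library, so the choice of genes partly fixes this count. The share of all genes with that library lowest was not counted. Bex1 lies on chromosome X (136213972 to 136215513, minus strand), Mid1ip1 on X (10715013 to 10719690, plus strand) and Cd81 on 7 (143052739 to 143067934, plus strand). Arfgef3 lies on 10 (18581839 to 18743949, minus strand), Asrgl1 on 19 (9109868 to 9135636, minus strand) and Haghl on 17 (25779843 to 25785673, minus strand).

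Over the 7 times sampled in the light arm, the group means of these genes are given as a description. The genes were called for differing between midday and midnight, which by itself places those means near the extremes. Among the 12 lower genes, Light ZT7.5 had the highest mean in 11 and Light ZT18 the lowest in 10. Of the 7 higher genes, Light ZT18 had the highest mean in 5 and Light ZT7.5 the lowest in 5. Plin4 averaged 3.76 ± 1.62 at ZT1, 11.6 ± 5.56 at ZT11.5, 40.6 ± 18.6 at ZT15 and 43.4 ± 34.3 at ZT18 of the light arm (SD, n = 4, 4, 4 and 3). Its levels were thus higher at the night times than in the morning. Hspa5 had its highest mean in the morning, 520.0 ± 46.2 at ZT1, and its lowest, 273 ± 22.3, at ZT7.5 (n = 4 each). The midnight mean of Hspa5, 451 ± 42.4 (n = 3), lies between these. Opalin averaged 125 ± 45.4 at ZT1, 245 ± 27.5 at ZT7.5, 128 ± 18.3 at ZT13 and 125 ± 26.3 at ZT18, with 197 ± 17.3 at ZT11.5. Each mean rests on 4 libraries, or 3 at ZT18. The midday mean was the highest, and those of morning and night lay close to each other.

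**Figure D2:**
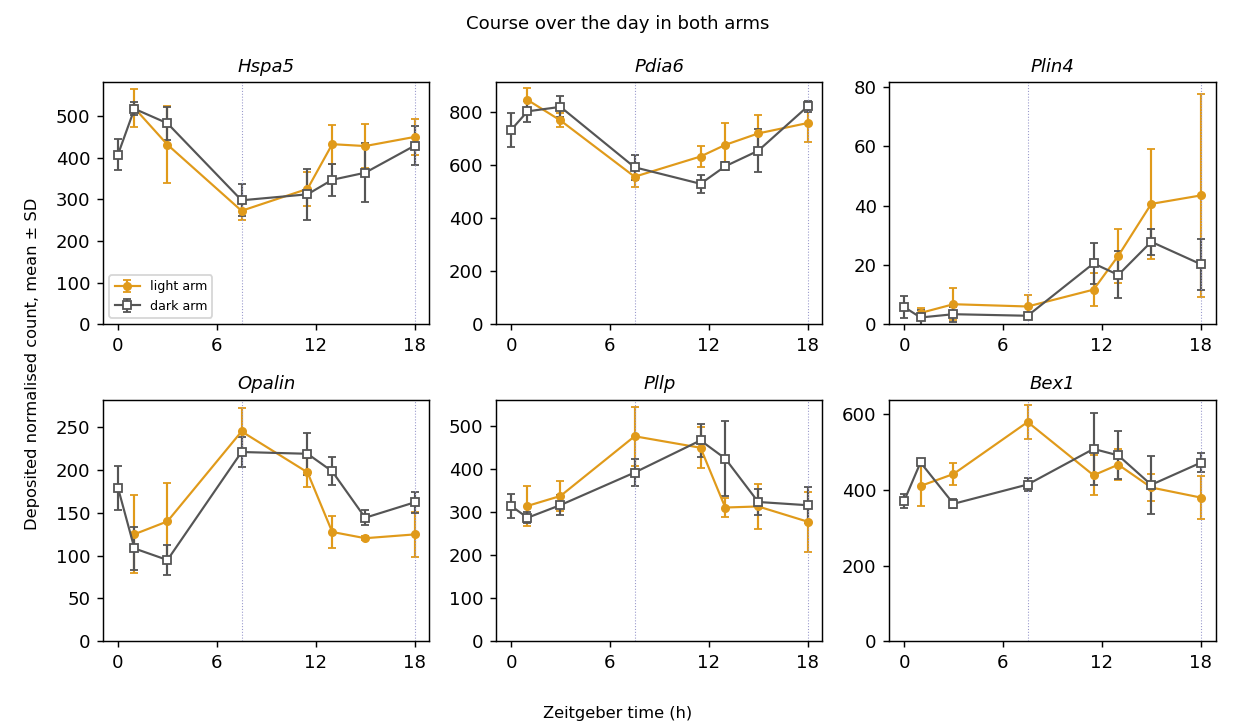
Mean ± SD of the deposited normalised count (y axes from 0) over Zeitgeber time (x axis, h) for 6 genes, in the light arm (orange circles) and the dark arm (grey open squares), with 3 or 4 libraries per point and dotted lines at ZT7.5 and ZT18. Hspa5 and Pdia6 are lowest at ZT7.5 or ZT11.5 in both arms, Plin4 is higher at night in the light arm and from ZT11.5 on in the dark arm, Opalin and Pllp have their highest means at ZT7.5 or ZT11.5, and Bex1 is highest at Light ZT7.5.

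Clock genes showed no difference that passed between midnight and midday. Of 16 tested, 0 passed in either direction, 10 had differences above 0, and the median was 0.05. The median was 0.12 without Light ZT18 replicate 1 and -0.02, with 7 differences above 0, without Light ZT18 replicate 3. Per2, a repressor of the clock, measured 59.3, 51.1 and 43.3 at Light ZT18, against 40.8, 25.8, 31.2 and 47.8 at Light ZT7.5 (log2 difference 0.51, SE 0.18, adjusted p = 0.28). The groups overlap, since the highest midday library lies between the midnight libraries. Npas2, a partner of the activator BMAL1, measured 38.7, 42.5 and 53.6 at Light ZT18, against 80.5, 72.9, 53.3 and 72.7 at Light ZT7.5 (log2 difference -0.62, SE 0.19, adjusted p = 0.16). It had the smallest adjusted p-value of the list, and the ranges overlapped by 1 midday library that was just under the highest midnight one. The output factor genes differed less. Dbp measured 728, 778 and 688 at Light ZT18, against 689, 563, 929.7 and 995 at Light ZT7.5 (log2 difference -0.08, adjusted p = 0.88), with replicates 3 and 4 of midday above all midnight libraries. Tef measured 1245, 1428 and 1688 at Light ZT18, against 1255, 1116, 1355 and 1306 at Light ZT7.5 (log2 difference 0.20, adjusted p = 0.52), and Nr1d1, which encodes the repressor REV-ERBα, measured 454, 567 and 444 at Light ZT18, against 634, 477, 624 and 547 at Light ZT7.5 (log2 difference -0.22, adjusted p = 0.68). Arntl, the gene of BMAL1, averaged 88.1 ± 15.4 at Light ZT18 (SD, n = 3) and 90.1 ± 8.70 at Light ZT7.5 (SD, n = 4). Between these times, which lie 10.5 h apart, its levels overlapped. Arntl was 126 ± 15.6 and 126 ± 18.6 at Light ZT1 and Light ZT3 (n = 4 each).

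Cirbp and Rbm3 encode RNA-binding proteins that are induced by mild cooling. Cirbp measured 261, 354 and 220.2 at Light ZT18, against 457, 451, 361 and 372 at Light ZT7.5, without overlap, and did not pass (log2 difference -0.58, SE 0.18, adjusted p = 0.18). Rbm3, at a low level, measured 19.8, 38.3 and 20.5 at Light ZT18, against 26.1, 24.3, 18.2 and 32.2 at Light ZT7.5 and overlapped (log2 difference 0.02, adjusted p = 0.99).

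Immediate-early genes, which neurons transcribe within minutes of activity, had mostly negative differences, but none passed. Of 21 tested, 0 passed and 18 had differences below 0, with a median of -0.30. Fos, a subunit of AP-1, measured 34.6, 16.0 and 52.5 at Light ZT18, against 29.5, 34.9, 87.1 and 81.0 at Light ZT7.5 (log2 difference -0.74, adjusted p = 0.47). Egr1, a zinc finger factor, measured 459.6, 486 and 607 at Light ZT18, against 684, 548, 1083 and 985 at Light ZT7.5 (log2 difference -0.63, SE 0.18, adjusted p = 0.13). Arc, a synaptic cytoskeletal protein gene, measured 340.2, 204 and 591 at Light ZT18, against 188, 248, 603 and 623 at Light ZT7.5 (log2 difference -0.08, adjusted p = 0.96). In all 3 genes the midday replicates 3 and 4 were far above replicates 1 and 2, so the spread within midday was as large as any difference between the times. Nr4a1, an orphan nuclear receptor gene, measured 206, 217 and 311 at Light ZT18, against 256, 238, 397 and 495 at Light ZT7.5 (log2 difference -0.46, adjusted p = 0.44). Npas4, a neuronal activity factor, measured 27.2, 14.9 and 50.2 at Light ZT18, against 29.5, 24.3, 75.4 and 98.7 at Light ZT7.5 (log2 difference -0.79, adjusted p = 0.55) and showed the same pair of high libraries. Not every member had this pair. Fosb was higher in midday replicates 1 and 2 (43.1 and 39.5) than in replicates 3 and 4 (26.0 and 35.3). In 2 members, Jund and Dusp1, the groups did not overlap, both lower at midnight, against 4.92% of all genes. With 1 library left out the list's median ran from -0.40 without Light ZT18 replicate 3 to -0.22 without Light ZT7.5 replicate 3, and it was -0.52 without the libraries with Ttr above 5000. None passed in these settings other than Egr1 without Light ZT7.5 replicate 2 (adjusted p = 0.0465). Egr1 passed in 3 of 19 alternatives, the others being DESeq2 and the fit without libraries under 2 M reads.

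Later activity-dependent genes, whose products act at synapses and in secretion, gave 0 passing of 15, with 11 differences below 0 and a median of -0.20. Nptx2, a secreted pentraxin that clusters AMPA receptors at synapses, measured 54.4, 59.6 and 74.1 at Light ZT18, against 164, 137, 104 and 88.3 at Light ZT7.5. The groups did not overlap, and the gene missed the threshold (log2 difference -0.94, SE 0.23, adjusted p = 0.067), which it passed without Light ZT7.5 replicate 4 (adjusted p = 0.0224). Nptx2 passed in 4 of 19 alternatives, the others being DESeq2, the replicate number as a block, and terms for replicates 3 and 4. Scg2, a secretory granule protein gene, measured 708, 705 and 719 at Light ZT18, against 881, 843, 931 and 775 at Light ZT7.5 (log2 difference -0.27, adjusted p = 0.19). Its midnight values were close together and below all midday values. Nrn1, which encodes the neurite growth factor neuritin, measured 1043, 1222 and 911 at Light ZT18, against 1434, 1892, 1202 and 1178 at Light ZT7.5 (log2 difference -0.41, adjusted p = 0.19), with overlap. Of the list, 3 members had groups that did not overlap, all lower at midnight, against 4.92% of all genes.

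**Figure D3:**
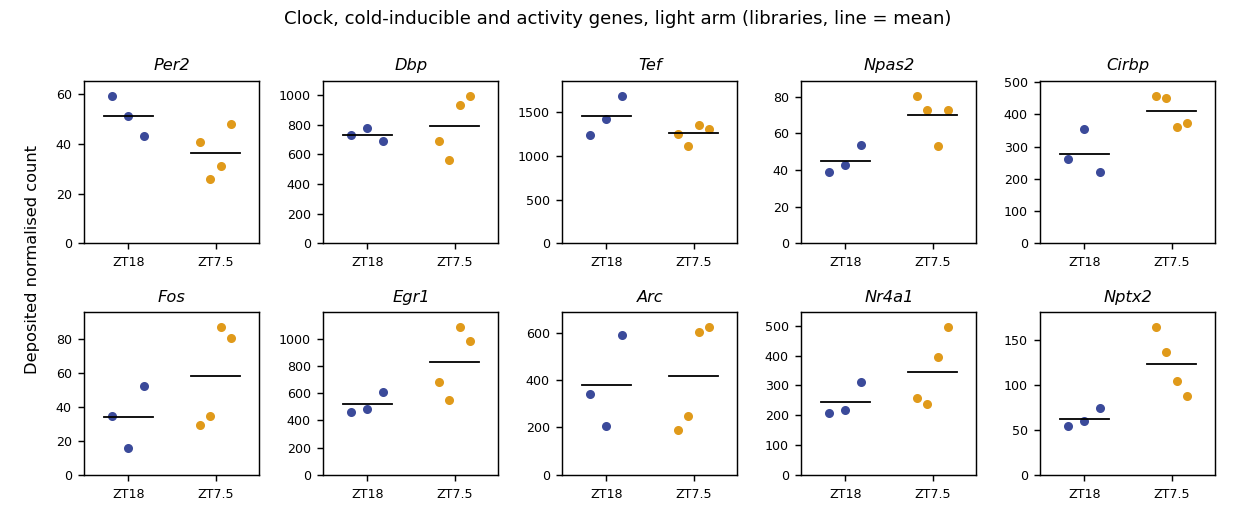
Deposited normalised counts (y axes from 0) of 5 clock and cold-inducible genes (top) and 5 activity genes (bottom) in the 3 Light ZT18 libraries (blue, left) and the 4 Light ZT7.5 libraries (orange, right), in order of replicate number with a line at the mean. None of the 10 genes passed. In Fos, Egr1 and Arc midday replicates 3 and 4 stand above replicates 1 and 2.

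Genes that respond to glucocorticoids, the hormones that peak in mice near the start of the active phase, included 1 passing gene of 16 tested, Plin4, against 0.181% of all genes, with a median difference of 0.17. None of the list passed without Light ZT18 replicate 1 or 3, Light ZT7.5 replicate 1 or 2, or the libraries with Ttr above 5000. In other settings 2 passed, namely without Light ZT7.5 replicate 3, without Light ZT7.5 replicate 4, and with terms for replicates 3 and 4. The median was 0.102 without Light ZT18 replicate 3. Sult1a1, a sulfotransferase gene, measured 48.6, 61.7 and 104 at Light ZT18, against 29.5, 12.1, 41.6 and 38.4 at Light ZT7.5. It did not pass, though the groups did not overlap (log2 difference 1.26, SE 0.32, adjusted p = 0.077). Fkbp5, a co-chaperone of the glucocorticoid receptor, measured 191, 166 and 305 at Light ZT18, against 112, 181, 161 and 166 at Light ZT7.5 (log2 difference 0.48, adjusted p = 0.24), and Tsc22d3, which encodes GILZ, measured 222, 336 and 335 at Light ZT18, against 245, 216, 264 and 302 at Light ZT7.5 (log2 difference 0.20, adjusted p = 0.72). Both overlapped between the groups. Angptl4 had the lowest difference of the list, with 13.2, 5.32 and 12.5 at Light ZT18, against 26.1, 19.7, 24.7 and 15.6 at Light ZT7.5 (log2 difference -1.05, adjusted p = 0.29).

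Heat shock chaperones of the cytosol and mitochondria gave 0 passing of 20, with 15 differences above 0 and a median of 0.06. Hspa1b, a stress-inducible Hsp70 gene, measured 99.7, 98.9 and 132 at Light ZT18, against 56.7, 60.7, 63.7 and 72.7 at Light ZT7.5, without overlap (log2 difference 0.78, SE 0.20, adjusted p = 0.09). Hspa1b has a near-identical neighbour, Hspa1a, so reads may be split between them. Chordc1, an Hsp90 co-chaperone gene, measured 49.4, 34.0 and 35.4 at Light ZT18, against 22.7, 24.3, 23.4 and 22.9 at Light ZT7.5 (log2 difference 0.72, adjusted p = 0.13). The midnight values of both genes were above all midday values.

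Genes of cholesterol synthesis gave 0 passing of 19, with 14 differences below 0 and a median of -0.12, which was -0.04 without Light ZT18 replicate 1. Insig1, a sensor that holds back sterol synthesis, measured 25.5, 28.7 and 14.8 at Light ZT18, against 32.9, 33.4, 50.7 and 44.7 at Light ZT7.5 (log2 difference -0.81, adjusted p = 0.22). The groups did not overlap. Ribosomal protein genes gave 0 passing of 76, with 59 differences below 0, a median of -0.11, and 9 members whose groups did not overlap, all lower at midnight, beside 4.92% of all genes. Rpl11, of the large subunit, measured 2289.7, 2368 and 2584 at Light ZT18, against 2903, 2767, 2750.2 and 2754 at Light ZT7.5 (log2 difference -0.21, adjusted p = 0.32). Many ribosomal protein genes have near-identical copies, so these counts are uncertain. Oxidative phosphorylation genes, 79 tested, gave 0 passing and a median of -0.03.

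Markers of other cell types gave 0 passing members in every list tested. The medians were -0.05 for 7 astrocyte, -0.11 for 8 microglia, -0.03 for 6 endothelial, 0.00 for 7 excitatory neuron and 0.02 for 7 interneuron markers. Microglia markers summed to 2529 to 2631 at Light ZT18 and 2735 to 2986 at Light ZT7.5, without overlap. The sums of the other lists named here overlapped. Single markers did not overlap in 2 of 7 interneuron genes, higher at midnight (4.49% of all genes), and in 1 of 7 excitatory neuron genes, Slc17a7, lower at midnight (4.92%). Lhx6, a factor of interneurons, measured 72.5, 87.2 and 74.1 at Light ZT18, against 47.6, 45.6, 58.5 and 59.2 at Light ZT7.5 (log2 difference 0.56, adjusted p = 0.19), and Aqp4, the water channel of astrocytes, measured 44.5, 53.2 and 27.4 at Light ZT18, against 80.5, 97.2, 46.8 and 62.3 at Light ZT7.5 (log2 difference -0.77, adjusted p = 0.28). Choroid plexus markers had the highest median, 1.73 over 5 genes, with all 5 above 0. Folr1, a folate receptor of that tissue, measured 169, 10.6 and 60.5 at Light ZT18, against 2.27, 4.56, 2.60 and 9.35 at Light ZT7.5 (log2 difference 3.28, adjusted p = 0.24). Without the libraries with Ttr above 5000 the median of the list was 0.42, with 3 of 5 above 0. Thalamic markers had the lowest median of the lists, -0.47 over 4 genes, with all 4 below 0. That median was -0.07 without Light ZT7.5 replicate 1.

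**Figure D4:**
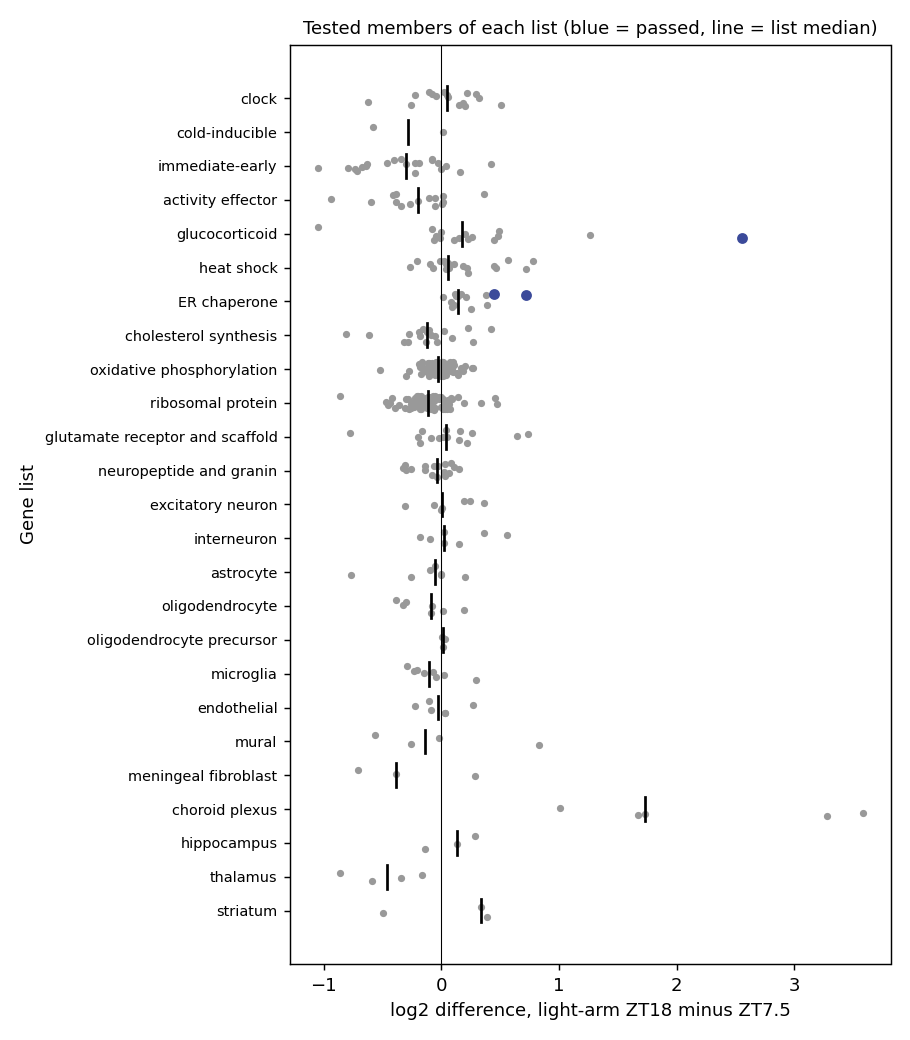
Log2 difference, Light ZT18 minus Light ZT7.5 (x axis, log2(value + 1) scale), of each tested member (points) of 25 gene lists (y axis), with a line at each list's median and larger blue points for members that passed. All 15 ER chaperone points lie right of 0 and 2 of them passed, 1 glucocorticoid-responsive gene passed, and the 5 choroid plexus markers spread far to the right without passing.

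The same clock times were also compared on the day without light, which is a different lighting condition. The arms share no library. The fit holds a common spread per gene for both, so passing in the dark arm is not independent of passing in the light arm. At Dark ZT18 against Dark ZT7.5, 56 genes passed (0.532%), 34 higher (0.323%) and 22 lower (0.209%), with 1403 at an unadjusted p under 0.05. The dark count was 15 without Dark ZT18 replicate 4, 14 without Dark ZT7.5 replicate 2, and 29 without Dark ZT7.5 replicate 3 and also without replicate 4, each left out alone. All 7 genes that were higher at midnight in the light arm had a positive difference in the dark arm, and 4 of them passed there, against the 0.323% of all genes. Of the 12 lower genes, 7 had a negative difference in the dark arm and 0 passed there. The shared 4 genes are 21.1% of the 19 light calls and 7.14% of the 56 dark calls. Of the 56 genes that passed in the dark arm, 49 had the same sign in the light arm, where 53.6% of all genes had the same sign in both.

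Pdia6 was 849, 818, 796 and 817 at Dark ZT18, against 616, 541, 561 and 645 at Dark ZT7.5 (log2 difference 0.48, SE 0.08, adjusted p = 0.00077). The groups lay as far apart as in the light arm, and the call remained whichever library was left out. Hspa5 was 364, 427, 462 and 465 at Dark ZT18, against 276, 323, 256 and 338 at Dark ZT7.5 (log2 difference 0.53, SE 0.13, adjusted p = 0.042). This call was lost in 6 of the 8 cases of 1 library left out, with adjusted p up to 0.158. Plin4 was 19.2, 8.58, 24.7 and 28.4 at Dark ZT18, against 1.94, 2.69, 3.08 and 3.50 at Dark ZT7.5 (log2 difference 2.38, SE 0.51, adjusted p = 0.013), and without Dark ZT18 replicate 4 or Dark ZT7.5 replicate 2 it did not pass (adjusted p up to 0.0728). Zbtb40 was 60.4, 56.4, 60.8 and 65.0 at Dark ZT18, against 29.1, 26.0, 31.9 and 38.5 at Dark ZT7.5 (log2 difference 0.94, SE 0.19, adjusted p = 0.0073), and it did not pass without Dark ZT7.5 replicate 2 (adjusted p = 0.0519). In all 4 genes the dark libraries did not overlap, as in 8.58% of all genes. Ttr in the dark libraries was 9168, 2434, 1869 and 294 at Dark ZT18, against 7216, 836, 610.4 and 110.2 at Dark ZT7.5, so it ranged widely at both times.

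Among the ER chaperones, 4 of 15 passed as higher in the dark arm, beside 0.323% of all genes, with 13 differences above 0 and a median of 0.27. Xbp1 was 665, 584, 642 and 809.9 at Dark ZT18, against 462, 403, 417 and 543 at Dark ZT7.5 (log2 difference 0.56, SE 0.09, adjusted p = 0.00027). Unlike in the light arm it passed, and the difference between the arms was not shown (interaction -0.18, adjusted p = 0.71). Sdf2l1, a component of an ER chaperone complex, was the other gene beside Xbp1, Hspa5 and Pdia6. It averaged 24.2 ± 8.38 at Dark ZT18 and 7.91 ± 1.73 at Dark ZT7.5 (SD, n = 4 each; log2 difference 1.47, adjusted p = 0.018). In the light arm it averaged 13.8 ± 6.01 at ZT18 (SD, n = 3) and 11.9 ± 3.70 at ZT7.5 (SD, n = 4). Of the other lists, the clock output gene Tef (0.64, adjusted p = 0.00027), the activity gene Arc (1.52, adjusted p = 0.011) and the heat shock genes Hspa1b (1.04, adjusted p = 0.0012) and Dnajb1 (0.46, adjusted p = 0.022) passed as higher at Dark ZT18, beside 0.323% of all genes, as did Plin4 of the glucocorticoid list. With 1 library left out, Xbp1, Tef and Hspa1b passed in 8 of 8 cases. Sdf2l1 passed in 4 of 8 (adjusted p up to 0.154), Dnajb1 in 3 of 8 (adjusted p up to 0.158), and Arc did not pass without Dark ZT18 replicate 4 or Dark ZT7.5 replicate 2 (adjusted p up to 0.0689).

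The myelin genes and Bex1, all lower at midnight in the light arm, had dark differences that did not pass. Opalin averaged 162 ± 12.0 at Dark ZT18 and 221 ± 17.9 at Dark ZT7.5 (SD, n = 4 each; log2 difference -0.44, adjusted p = 0.20). Pllp averaged 316 ± 42.2 at Dark ZT18 and 392 ± 31.2 at Dark ZT7.5 (log2 difference -0.32, adjusted p = 0.22). Bex1 averaged 471 ± 24.8 at Dark ZT18 and 414 ± 17.2 at Dark ZT7.5, with the opposite sign (log2 difference 0.19, adjusted p = 0.45). Whether these differ from the light changes was tested by the interaction, the light change minus the dark change.

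No gene passed the interaction test with limma, beside 969 with an unadjusted p under 0.05. The count was 0 with edgeR and 8 with DESeq2. The smallest adjusted p-value was that of Bex1 (interaction -0.80, SE 0.16, adjusted p = 0.063). Bex1 passed in 3 of the 15 cases of 1 library left out, with adjusted p from 0.0115 to 0.512. Without passing over all genes, 10 of the 12 lower genes and 1 of the 7 higher genes had an unadjusted interaction p under 0.05. Since the light change by which these genes were called is also a term of the interaction, that count is no independent test. For Pdia6 the interaction was -0.03, adjusted p = 0.97 with SE 0.12, and for Plin4 0.17, adjusted p = 0.97 with SE 0.75. Immediate-early genes had a dark median of 0.29 beside the light median of -0.30. Arc was 601, 604, 498 and 688 at Dark ZT18, against 185, 166, 255 and 234 at Dark ZT7.5, and its interaction did not pass (-1.59, SE 0.47, adjusted p = 0.24).

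**Figure D5:**
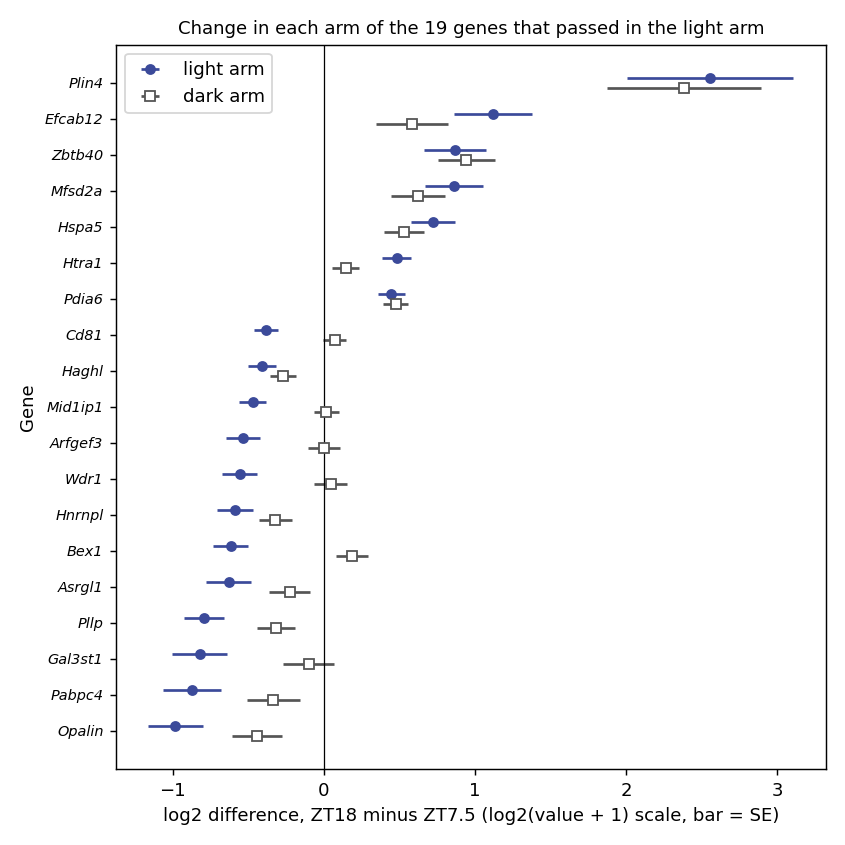
Log2 difference, ZT18 minus ZT7.5, with its SE (x axis, log2(value + 1) scale) of the 19 genes that passed in the light arm (y axis), in the light arm (blue circles) and in the dark arm (open squares). The 7 higher genes are right of 0 in both arms, while 5 of the 12 lower genes, Cd81, Mid1ip1, Arfgef3, Wdr1 and Bex1, are at or above 0 in the dark arm.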

How the data were processed

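The deposited table gives 1 signal value per gene and library, a gene count that the authors divided by a size factor per library. Reads were trimmed with cutadapt, aligned to mm10 with STAR 2.5.2b and then processed with DESeq2, as named in the submitters' processing notes. No source used here gives the annotation, the strand setting or the use of molecular identifiers, and overlapping or antisense genes may share counts. Of 24421 rows, 27 with date names in place of gene symbols were left out (0.294% to 0.363% of a library's reads). The spacing of low values gave the worth of 1 read in each library. Divided by that step, 100% of values were whole to within 0.01. Libraries held 1.64 to 4.31 M reads, and a mean value of 10 therefore rests on few reads. Replicate pairs of the groups compared, 21 in all, differed by more than counting noise (chi-square per degree of freedom 2.18 to 5.68), so none was a copy.

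Tests covered the 10526 genes whose mean over all libraries was 10 or more. They were run on log2(value + 1) with limma 3.58.1 in R 4.3.3, with its mean-variance trend. The fit held all 57 libraries as 15 groups, with a common spread per gene and no covariates. The contrasts were Light ZT18 minus Light ZT7.5, Dark ZT18 minus Dark ZT7.5 and their difference, two-sided, with Benjamini-Hochberg adjustment over all genes and a threshold of 0.05. Differences on this log2 scale are smaller than the true ones for genes of low level. Count tests (edgeR 4.0.16, DESeq2 1.42.0) used the recovered reads of 55 libraries. In the other 2 (Dark ZT11.5 replicate 2 and Dark ZT15 replicate 2) 1 read is worth nearly 1 unit, so recovery could not be checked. The limma fit of the light contrast was tested on simulated counts, with the same excess variation in every gene. The simulation held no difference between replicate numbers and no uneven choroid plexus level. It therefore does not bear on how the calls depend on single libraries.

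The groups, gene lists and naming rule were chosen with earlier results of these data known. The rule named up to 15 passing genes in each direction, all clock, cold-inducible, immediate-early, activity effector and glucocorticoid genes, the 4 smallest p of other lists, and up to 10 passing the interaction. Gene models without a name and near-identical copies were skipped, and all 19 passing genes were named. Its promoter clause was for clock genes, of which none passed, so the promoter sites of ER chaperones were chosen after values were seen, as were the dark values of Sdf2l1. Gene positions are from GENCODE M21 and promoters from RefSeq, both on GRCm38. The alternatives were another pseudocount (5), minimum mean (50 or none), TMM rescaling, both count tests, fewer groups in the fit, terms for the replicate number or for replicates 3 and 4, and each library left out. Those without libraries under 2 M reads or with Ttr above 5000 were added after seeing the data.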

Additional observations from a re-analysis of the deposited data

Results flagged for a closer look

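In groups of 4 libraries, a library was singled out where its gap to the nearest of the others exceeded Dixon's 95% critical value. This held in 9 of the 174 groups examined over the genes named in the text, and chance gives about 1 in 20. In the light arm, Mid1ip1 was lowest in Light ZT7.5 replicate 3, at 455.1 against 544.5 to 558.8 in the other libraries, still above every Light ZT18 library. Xbp1 was highest in the same library, at 452.5 against 415.2 to 419.1. Rpl11 was highest in Light ZT7.5 replicate 1, at 2903 against 2750 to 2767. In the dark arm at ZT18, Haghl was highest in replicate 1 (489.3 against 428 to 434), Ier2, an immediate-early gene, highest in replicate 4 (89.39 against 48.63 to 54.58) and Cnp lowest in replicate 2 (1587 against 1769 to 1792). At Dark ZT7.5, Opalin was highest in replicate 2 (247.5 against 209 to 214.4), as was Hspa1b (70.84 against 59.6 to 61.22), and Egr1 was highest in replicate 4 (701.4 against 559 to 575.4). The light group at ZT18 has 3 libraries and was not examined in this way.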

How the results depend on the processing

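The count of 19 genes between Light ZT18 and Light ZT7.5 was within 1.5 times of itself under a pseudocount of 5, either filter on low values, TMM rescaling and edgeR (16 to 20). It was 32 with DESeq2 (17 shared with limma), 8 with the light arm only, 2 with both groups only, 30 with terms for replicates 3 and 4, 9 without libraries under 2 M reads and 0 without the 10 libraries with Ttr above 5000, where 1 Light ZT18 library is left and is assumed to vary like the other groups. In the last case 518 genes had an unadjusted p under 0.05, and the 19 genes had adjusted p from 0.335 to 0.948. Leaving out 1 library gave 0 to 39: 0, 25 and 10 without Light ZT18 replicates 1, 2 and 3, and 6, 9, 21 and 39 without Light ZT7.5 replicates 1, 2, 3 and 4. Hspa5, Pllp and Bex1 passed in 6 of these 7 cases, all but Light ZT18 replicate 1. For the dark arm, where 56 passed, the count was 111 with DESeq2, 33 with edgeR, 36 with both groups only, 122 with terms for replicates 3 and 4, 17 without libraries under 2 M reads, 22 without those with Ttr above 5000, and 14 to 62 with 1 library left out. The interaction, 0 with limma, gave 8 with DESeq2, 1 with a minimum mean of 50, 1 with terms for replicates 3 and 4, and 0 to 4 with 1 library left out. It was not run with 1 arm only, since both arms are all libraries. With the replicate number as a block, 29 genes passed in the light arm and 1 in the interaction. Deviations of same-numbered light libraries had r of -0.03, 0.18 and 0.13, and those of differently numbered ones -0.252 to 0.134. In the dark arm same numbers gave 0.241, 0.0299, -0.000947 and 0.183. Not every pair exceeded 0.1, and not every library correlated best with its own number, so the numbers were not taken to pair the samples. Of 358 values of the 19 genes under alternatives, 230 still passed, 128 did not, and 0 turned direction. Of 734 values of other named genes, none of which passed in the main fit, 17 passed with the same direction. Another 15 turned direction, none past the threshold. These were Nr1d1 without high Ttr (4.017e-06), Dbp without Light ZT7.5 replicate 3 (0.004144) or 4 (0.03676) or high Ttr (0.00654), Arntl without Light ZT18 replicate 2 (0.1003), Light ZT7.5 replicate 2 (0.009335) or libraries under 2 M reads (0.009335), Rbm3 with terms for replicates 3 and 4 (-0.05029) or without Light ZT18 replicate 2 (-0.2819) or Light ZT7.5 replicate 3 (-0.1243), and Arc with the replicate block (0.01036), terms for replicates 3 and 4 (0.03906) or without Light ZT18 replicate 2 (0.3) or Light ZT7.5 replicates 3 (0.1656) or 4 (0.1811). Over all left-out libraries Dbp ran from -0.2364 to 0.03676, Arntl from -0.152 to 0.1003, Rbm3 from -0.2819 to 0.1781 and Arc from -0.4641 to 0.3. The cause of these shifts was not tested. With 3 and 4 libraries of 1.78 to 3.20 M reads, genes near a mean of 10 are measured imprecisely.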
